A study of Mus musculus with 24 samples.

Results

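The comparison described here is the strain difference that male NZO mice showed relative to male B6 mice on average over 3 tissues. It used 23 of the 24 arrays of the series: 4 NZO and 4 B6 arrays of gonadal white fat (gWAT), 4 NZO and 4 B6 arrays of brown fat (BAT), and 4 NZO and 3 B6 arrays of skeletal muscle (labelled quad). NZO mice were of the strain NZO/HiBomDife and B6 mice of the strain C57BL/6, with no substrain given. All mice received a high-fat diet with 45% fat and were 6 weeks old. The fourth B6 muscle array, number 011, was left out of the average and is described in the next paragraph. A probe entered the test when one strain or the other had it well above background throughout its arrays in every tissue, as held for 25875 of the 55681 probes on the array, standing for 18950 gene names. A level is the log2 of the processed signal after taking off the array's own 75th percentile, and a difference is the NZO level minus the B6 level on that log2 scale with tissue as a block, given with its standard error (SE) from limma. A probe was called where its Benjamini-Hochberg adjusted p over all tested probes was under 0.05.

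The arrays held their labelled tissues, with brown fat showing Ucp1 levels of 9.62 to 9.97 on NZO arrays and 9.99 to 10.37 on B6 arrays, and muscle showing Acta1 levels of 10.62 to 10.9 on NZO arrays and 10.73 to 10.96 on the B6 arrays used. The 75th percentile of the processed signal lay between 134 and 360 units, 52.9% to 60.4% of probes were well above background, and no spot was saturated. B6 muscle array 011 correlated across probes at 0.959 to 0.968 with the other B6 muscle arrays, which correlated at 0.983 to 0.99 with each other, while NZO muscle arrays correlated at 0.962 to 0.985. Its level of Adipoq, the adipocyte hormone adiponectin, was 6.79, against 2.43 to 3.37 on the other B6 muscle arrays. Of the 18 probes described below as on only in NZO, 15 were well above background on this array labelled B6, among them Ifi202b at 2.07, against -6.69 to -6.27 on the other B6 muscle arrays, and so were 30 of the 32 on only in B6. What gave these signals was not tested. The labels do not say that the samples of a group came from separate animals, so each p rests on the spread between samples. For an average difference, the SE and p also take in how far the strain difference varied between tissues. Equal numbers in different tissues may stand for the same mouse, which was not stated. In whole tissue, fewer cells of a type and less RNA per cell cannot be told apart.

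NZO is an inbred strain that becomes obese and diabetic on rich diets, and C57BL/6 is the common laboratory strain. Inbred strains differ throughout the genome, so a gene can differ in expression in many tissues alike when its promoter, its copy number or its coding sequence differs between them, and a microarray probe can also bind the transcript of one strain better when the sequence under the probe differs. Genes that sit side by side on a chromosome are inherited together, and gene families such as the interferon-induced p200 genes, the major histocompatibility genes and the zinc finger genes lie in clusters that vary in copy number between strains. No NZO genome was used here, so which of these applied to a gene was not tested.

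The probes of this array are oligonucleotides of 60 bases, and several results below turn on pairs of probes that carry the same gene name. The first 30 bases are printed 5′ to 3′ for pairs with different strain differences, with positions on the mouse build mm9. For Rbm45 a stretch of 30 bases is shown in which its overlapping probes line up, and the capitals mark the bases at which they differ.
Rbm45 probe A, higher in NZO, chr2:76221740-76221799, plus strand: ttagagaaataCgttgtcatgtatAgTaga
Rbm45 probe B, lower in NZO, chr2:76221763-76221822, plus strand: ttagagaaataTgttgtcatgtatGgCaga
For Pcgf5 the capitals mark bases that both probes hold.
Pcgf5 probe A, chr19:36530629-36530688, plus strand: CTGAGCCACTGACCTATTCTTGGTAAACTT
Pcgf5 probe B, chr19:36530623-36530682, plus strand: tggtttCTGAGCCACTGACCTATTCTTGGT
The next pairs share no stretch of 12 bases or more and are shown in lower case because they gave opposite or absent differences.
Arsk probe A, higher in NZO, chr13:76199926-76199985, minus strand: ttggaccagaagcttcgttctattgtaaac
Arsk probe B, lower in NZO, chr13:76198809-76198868, minus strand: cagctgttggcattcccaccaataggtagc
Ocel1 probe A, higher in NZO, chr8:73896997-73897056, plus strand: tcctcctccaataggaaaccacaccagttc
Ocel1 probe B, lower in NZO, chr8:73903201-73903260, plus strand: ctgtgtggttgggacagattaaaacccata
Thumpd1 probe A, not called, chr7:126858660-126858719, minus strand: gctgaatacagttctcagatatttttactg
Thumpd1 probe B, lower in NZO, chr7:126858835-126858894, minus strand: tgtgctagcgtacaggtgatccagggtagg
Rbbp9 probe A, chr2:144369557-144369616, minus strand: ccaaattgtacaaattcactgaccgtggtc
Rbbp9 probe B, chr2:144368183-144368242, minus strand: cacatacataaaataaactatgccaggtta
The pair of Ifi202b is shown because both its probes were on in NZO only, and the span of its probe A in the genome exceeds the probe's length.
Ifi202b probe A, chr1:175892953-175893982, minus strand: attgacctcaaatgcagatgagtggtttct
Ifi202b probe B, chr1:175892789-175892848, minus strand: ctgctcaaatataatacatacaacatccag

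On average over the tissues, 7194 probes were called, 27.8% of those tested, with 3234 higher (12.5%) and 3960 lower (15.3%) in NZO. Most of these differences were small. The median absolute difference of a called probe was 0.49 and the median SE over all tested probes 0.11. Of the called probes, 1230 (4.75% of those tested) differed at least 2-fold, 552 higher (2.13%) and 678 lower (2.62%). At 4-fold and more (a log2 difference of 2) there were 345, at 8-fold and more 144, and at 16-fold and more 60. Among those 60 only 3 were well above background on every array used, so the largest fitted differences mostly came from probes that were dim in one strain and do not measure size. The balance of the directions depended on scaling. The called probes were 45% higher in NZO with the 75th percentile, but 62.1% with each array centred on its median.

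The difference was often shared by the tissues without being equal in them. All 3 tissues had the same sign for 84.2% of the called probes and for 93.7% of those called at least 2-fold, against 36.7% of all tested probes. The called probes were chosen by the average over these same arrays, which favours one sign. The shares therefore describe them and are no test of sharing. For 588 probes, 2.27% of those tested, the difference was at least 2-fold in one direction in each tissue, 249 higher and 339 lower in NZO. They carried 497 gene names, and 541 of them showed no overlap of the strains in any tissue. Over all tested probes 5.62% had no such overlap in one direction, 2.46% with NZO higher and 3.16% with NZO lower, and 1451 probes (5.61%) were also called. A test of the strain by tissue interaction was passed by 7266 probes (28.1% of those tested) and by 592 of the 1230 called at least 2-fold. Among those 1230, the largest of the 3 tissue differences was that of gWAT for 566 probes, of BAT for 364 and of muscle for 300. The plot of the 3 tissue differences shows where an average stands for a single tissue.

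**Figure D1:**
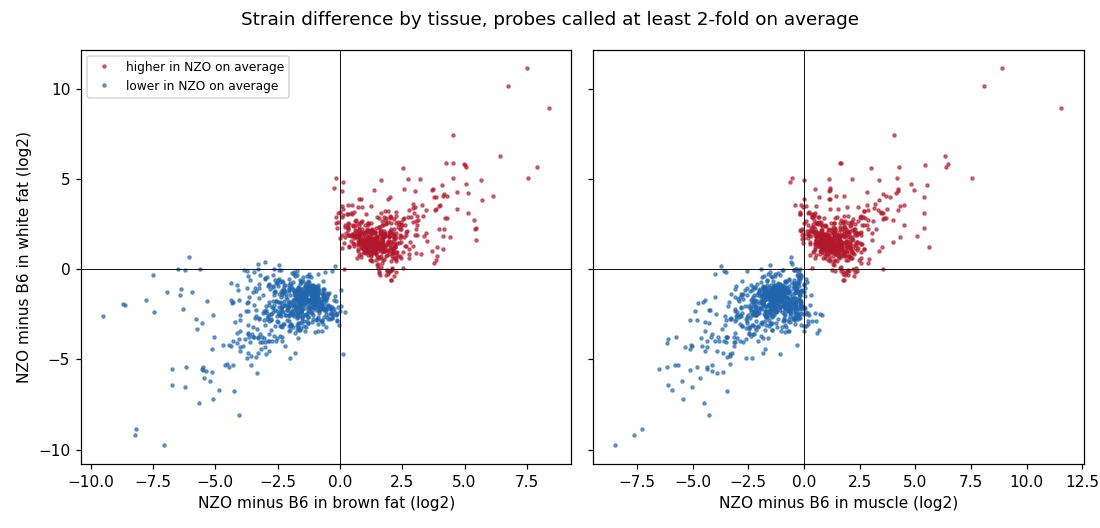
NZO minus B6 difference (log2) in white fat on the vertical axis against that in brown fat (left) and muscle (right) for the 1230 probes called at least 2-fold on average, red for probes higher and blue for probes lower in NZO. Most points lie in the quadrants of equal sign, as 93.7% had one sign in all 3 tissues, and the points at the far left of the brown fat panel include myosin genes that were lower in NZO brown fat.

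The genes with the highest average difference that were well above background on all arrays used and did not overlap between strains came from many pathways. Rem1, a small GTPase that inhibits voltage-gated calcium channels, had levels of 1.56, 1.87, 1.98 and 1.69 in NZO gWAT, against -2.33, -2.41, -2.19 and -1.91 in B6 gWAT. In BAT its levels were 0.48, 0.64, 0.75 and 0.31 in NZO, against -3.35, -3.94, -2.79 and -2.87 in B6. In muscle they were 1.04, 1.03, 1.25 and 1.23 in NZO, against -3.2, -2.13 and -2.84 in B6. Every NZO array lay above every B6 array of its tissue, and the difference was 3.88 (SE 0.13, adjusted p = 4.33e-16), a 14.7-fold higher signal. The 3 tissue differences of Rem1 were 3.98, 3.78 and 3.86, and their interaction test gave an adjusted p of 0.871.

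Hddc3, an enzyme that hydrolyses the alarmone ppGpp, differed almost equally in the 3 tissues. Its levels were 1.46, 1, 1.07 and 1.57 in NZO gWAT, against -1.21, -1.04, -1.54 and -1.14 in B6 gWAT. In BAT they were 2.88, 3.22, 2.91 and 2.99 in NZO, against 0.38, 0.71, 0.61 and 0.76 in B6. In muscle NZO arrays gave 1.47, 1.37, 1.29 and 1.52, against -0.72, -1.04 and -0.84 in B6. The average difference was 2.40 (SE 0.08, adjusted p = 6.16e-16), and Hddc3 was higher on all NZO arrays of each tissue. Gchfr, the feedback regulator of the enzyme that starts tetrahydrobiopterin synthesis, was higher by 3.99 (SE 0.26, adjusted p = 5.77e-11), in gWAT by 4.26, in BAT by 4.71 and in muscle by 2.84.

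The remaining genes with the highest differences ranged from 4.63 for Tox4, a nuclear HMG-box protein fitted on 22 arrays because an NZO muscle array lacked its value, to 2.31 for Arsk. They held Ccl19 (3.60), a chemokine that draws lymphocytes and dendritic cells, whose difference varied between tissues. Its level was 3.65, 3.94, 3.34 and 3.6 in NZO muscle, against -1.3, -1.21 and -1.79 in B6 muscle, and the difference was 5.07 in muscle, 4.13 in BAT and 1.81 in gWAT. Ccl19 lies in a cluster of near-identical gene copies, which the probe cannot be assumed to separate, and its 3 probes gave 4.33, 3.60 and 2.22. The others were Rbm45 (2.79), an RNA-binding protein, Mirg (2.79), a non-coding RNA of an imprinted locus, Rnase2a (2.60), a ribonuclease of eosinophils, Dera (2.56), an aldolase of deoxyribose phosphate, Trem2 (2.37), a lipid-sensing receptor of macrophages, and Rad51ap1 (2.35), a factor of DNA repair by recombination. Trem2 was 4.41 higher in gWAT, 1.35 in BAT and 1.17 in muscle, so white fat carried most of its average. The list of macrophage markers, which itself holds Trem2, had 7 of 11 tested higher in NZO and none lower, against 13.1% higher over all genes. The mean level of the list was 3.55 to 3.81 in NZO gWAT against 1.43 to 1.72 in B6 gWAT. In the other tissues the strains overlapped. In muscle the list mean was -0.164 to 0.655 in NZO against 0.111 to 0.212 in B6. In BAT it was -0.557 to -0.237 in NZO against -0.722 to -0.303 in B6. The part of these cells in the Trem2 difference was not tested.

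**Figure D2:**
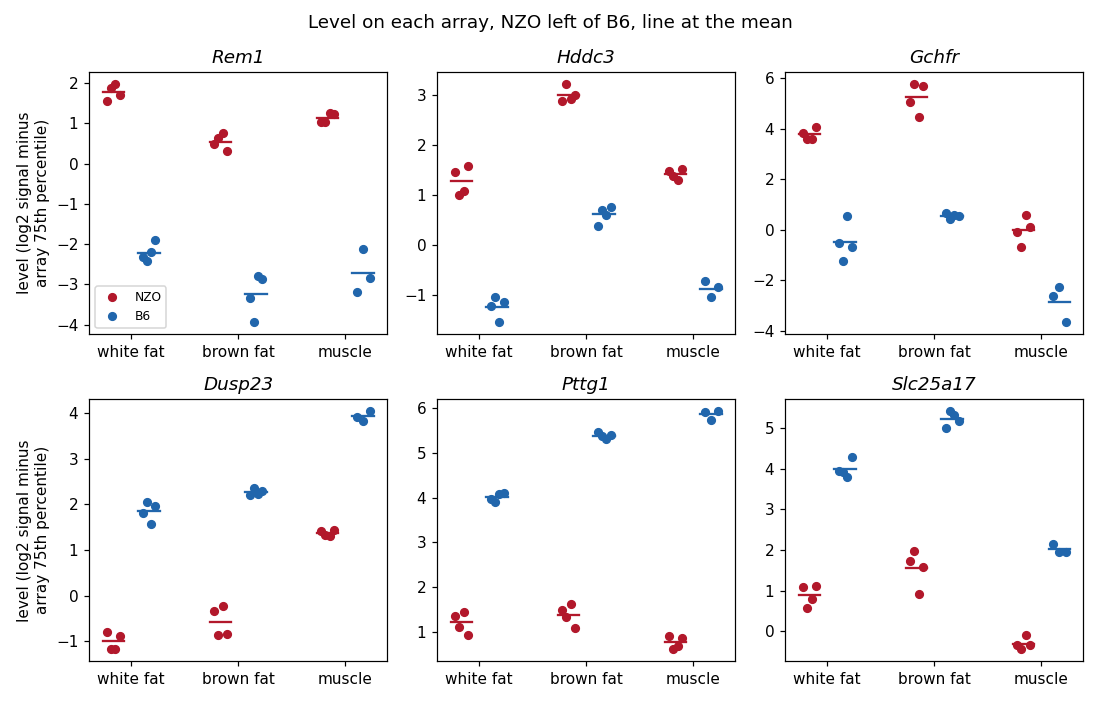
Level of 6 genes (log2 processed signal minus the array's 75th percentile) on each array, NZO in red left of B6 in blue within white fat, brown fat and muscle, with a line at each mean. Rem1, Hddc3 and Gchfr are higher, and Dusp23, Pttg1 and Slc25a17 lower, on all NZO arrays than on all B6 arrays of the same tissue.

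At the other end stood Pttg1, the securin that keeps sister chromatids from parting before anaphase. Its levels were 1.35, 1.11, 1.45 and 0.93 in NZO gWAT, against 3.97, 3.91, 4.08 and 4.1 in B6 gWAT. In muscle they were 0.91, 0.6, 0.68 and 0.86 in NZO, against 5.92, 5.73 and 5.94 in B6. Pttg1 fell by 3.92 on average (SE 0.21, adjusted p = 1.83e-12), and its second probe, well above background on 17 of 23 arrays, was lower too (adjusted p = 3.04e-09). Other genes of cell division moved the other way, as given below.

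Dusp23, a small protein phosphatase, showed a difference of nearly one size in every tissue. It stood at -0.79, -1.18, -1.16 and -0.88 in NZO gWAT, against 1.81, 2.04, 1.57 and 1.96 in B6 gWAT. Muscle gave 1.41, 1.32, 1.31 and 1.44 in NZO, against 3.92, 3.82 and 4.04 in B6. The difference was -2.76 (SE 0.08, adjusted p = 1.34e-16), and the interaction test for it gave an adjusted p of 0.442. Slc25a17, a carrier of coenzyme A and other cofactors in the peroxisome membrane, fell by 3.07 (SE 0.16, adjusted p = 6.44e-13), with levels of 1.73, 1.97, 0.91 and 1.57 in NZO BAT, against 5, 5.42, 5.33 and 5.17 in B6 BAT.

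Further down among the lowest genes were Rab6b (-3.83), a GTPase of Golgi traffic, Zfp780b (-3.36), a zinc finger protein, Unc5a (-3.08), a netrin receptor, Timm10b (-2.98), a chaperone of mitochondrial import, Hdac1 (-2.96), a histone deacetylase, D7Ertd143e (-2.79), Dst (-2.62), a linker of the cytoskeleton, Fbxo44 (-2.60), a subunit of ubiquitin ligases, and Pcgf5 (-2.55), a polycomb protein. All of them were lower on every NZO array than on every B6 array of the same tissue, which was the rule by which they were named. Of the 24 genes named by this rule, the interaction test called 12, and 11 had a second tested probe. Those second probes did not always follow. Timm10b had 3 other probes, one called higher at 0.56 and the others not called at -0.14 and 0.24, and Dst had 2 others, at -0.20 and -0.10, neither of them called.

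Some probes were on in one strain only, among the 23 arrays used. In all 3 tissues, 18 probes of 13 gene names were well above background on every NZO array and on no B6 array, and 32 probes of 28 names on every B6 array and on no NZO array. With B6 muscle array 011 added, 3 probes were on only in NZO and 30 only in B6, and none of the NZO genes described here was among the 3. For these a bound is given in place of a fold, the mean of the brighter strain over the floor set by the lowest signal well above background. Ifi202b, a p200 protein that binds DNA in the cytoplasm and has been studied as an obesity gene in NZO mice, was one of them. Its levels were 4, 4.14, 3.68 and 4.04 in NZO gWAT, 1.05, 0.43, 1.12 and 1.21 in NZO BAT and 2.02, 1.95, 2.74 and 2.84 in NZO muscle, while the B6 muscle arrays used lay between -6.69 and -6.27 and no B6 array used was well above background. The signal was at least 519.7-fold higher in NZO gWAT, at least 38.5-fold in BAT and at least 98.1-fold in muscle (adjusted p = 4.95e-15). Its second probe, 164 bases away, gave at least 342-fold, 28.2-fold and 67.0-fold. Probes that passed the filter only through their brighter strain, here and in other paragraphs, were thereby chosen for a difference. Their adjusted p adds no support.

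Tescl, a relative of the calcium-binding protein tescalcin, was on only in NZO with both of its probes, at least 28.3-fold higher in BAT, 11.5-fold in gWAT and 8.53-fold in muscle. Kcnj10, an inward rectifier potassium channel, was at least 3.33-fold higher in NZO gWAT, 2.06-fold in BAT and 2.45-fold in muscle. Mrap2, an accessory protein of melanocortin receptors, was on only in NZO with 2 probes, but another probe of the gene was above background on B6 arrays, so no bound is given. Clec16a, a regulator of mitophagy, had a probe on only in NZO and another that was on in both strains and higher by 1.48.

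Among the probes on only in B6 was Mx2, an interferon-induced GTPase. Its levels in B6 were -0.46, -0.73, -1.16 and -0.57 in gWAT and -1.23, -2.38 and -2.08 in muscle, and it was at least 19.5-fold lower in NZO gWAT, 10.3-fold in BAT and 5.92-fold in muscle. Apol10b, an apolipoprotein L family member, was at least 42.4-fold lower in NZO gWAT, 19.0-fold in BAT and 20.7-fold in muscle. Zfp607a, a zinc finger gene, was at least 16.8-fold lower in NZO gWAT, 10.6-fold in BAT and 5.71-fold in muscle. For Tceanc2 these bounds were 9.53-fold, 4.75-fold and 14.7-fold, with both of its probes not well above background on any NZO array. Their adjusted p lay between 1.34e-16 for Tceanc2 and 1.32e-11 for Mx2, which adds no support, as the probes were chosen as on in one strain.

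The second probe of a gene often limited what such a pattern says. Of the 28 names on only in B6, 15 had another probe on the array, and for 14 of these another probe was above background on at least 1 NZO array. Of the 13 names on only in NZO, 6 had another probe, and all 6 had one above background on a B6 array. Trim12a, a relative of the antiviral protein TRIM5, had one probe at 2.33, 2.28, 2.07 and 2.18 in B6 gWAT and not well above background on any NZO array, whereas its other probe was on in both strains and lower by 2.01 in NZO (SE 0.15, adjusted p = 7.96e-10). Rbbp9, a serine hydrolase, had probe B on only in B6, and probe A, 1374 bases away, on in both strains and higher in NZO by 0.29 (SE 0.08, adjusted p = 0.00792). That small rise passed the test neither without gWAT nor without BAT.

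The agreement between probes of one gene could be read over 5005 names with at least 2 tested probes. Of these, 659 had all probes called in one direction, 1385 had only some called, 118 had calls in both directions and 2843 had none. Among the 394 names with a call of at least 2-fold, 94 (23.9%) had every probe at least 2-fold in one direction, 288 (73.1%) had only some and 12 had such calls in both directions. Over the 10008 pairs of probes, 71.7% had the same sign. Of the 821 pairs with at least one 2-fold call, 73% had the same sign, 31.5% lay within 0.5 of each other and 159 differed by more than 2. The 366 such pairs from genes with a symbol had the same sign in 69.4% of cases. Where both probes were called, 88.5% of 1610 pairs had the same sign. Of the 215 names with 2 or more tested probes and a difference of at least 2-fold in each tissue, 110 had all probes called in one direction, 83 had a probe that was not called, and 28 had a probe called the other way.

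**Figure D3:**
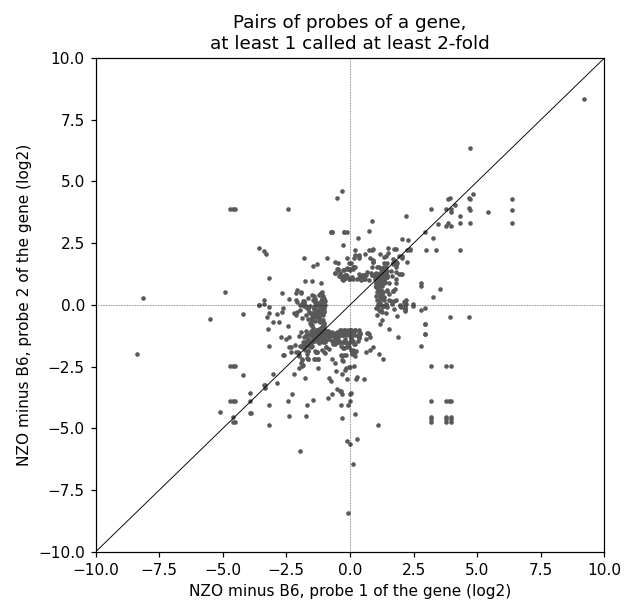
Average NZO minus B6 difference (log2) of one probe of a gene against that of another, for the 821 pairs of probes with at least one called at least 2-fold, with a line of equality. Points along the axes are pairs in which only one probe moved, and 23 of the 159 pairs that differed by more than 2 come from one unnamed transcribed region of chromosome 6.

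The overlapping pair of Rbm45 moved in opposite directions. Probe A gave 1.01, 0.56, 0.74 and 0.82 in NZO gWAT, against -2.15, -2.18, -2.13 and -1.92 in B6 gWAT. Probe B gave -1.12, -1.58, -1.21 and -1.61 in NZO gWAT, against 0.17, 0.05, 0.01 and 0.31 in B6 gWAT. Both were well above background on all 23 arrays, and neither overlapped between strains. The difference was 2.79 (SE 0.07, adjusted p = 5.28e-18) for probe A and -1.67 (SE 0.07, adjusted p = 1.97e-14) for probe B, although they start 23 bases apart. Of the 37 positions that the probes share in the genome, 3 differ between their sequences, at C19T, A32G and T34C, with the base of probe A first and positions counted from 1 at the 5′ end of probe B. Probe B of Rbm45 and the comparison of the pair were chosen after their values were seen.

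Pcgf5 shows how far overlapping probes with the same 54 bases can differ in size. Probe A, which starts 6 bases beyond probe B, gave -2.55 (SE 0.09) and probe B -1.27 (SE 0.08), both called, and another probe of the gene was 3.99-fold lower. Arsk, a lysosomal sulfatase, was higher by 2.31 (SE 0.09) with probe A, which was on in all arrays, and its probe B, 1117 bases away, was on in B6 only. Ocel1 was higher by 2.08 (SE 0.07, adjusted p = 7.92e-16) with probe A and lower with probe B (adjusted p = 3.18e-10), which was well above background on 12 of 23 arrays, among them all 11 of B6.

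A gap of similar form was seen in Thumpd1, an adaptor of tRNA acetylation. Probe A gave 2.68, 2.32, 2.36 and 2.48 in NZO gWAT, against 2.58, 2.63, 2.77 and 2.57 in B6 gWAT, and its average difference was -0.06 (SE 0.07, adjusted p = 0.516). Probe B, 175 bases away, gave 2.60, 2.57, 2.72 and 2.59 in B6 gWAT and was not well above background on any NZO gWAT array, at least 199-fold lower for this probe alone. On NZO BAT array 009 it reached -0.71, while the other NZO BAT arrays lay between -6.54 and -6.02. The same form was seen for Med8, a mediator subunit, at -0.02 with one probe and lower with the other (adjusted p = 1.57e-10). It was seen too for Ints11, the nuclease of the integrator complex (0.13 and lower, adjusted p = 3.95e-13). Adamts4, a protease of the matrix (0.28 and lower, adjusted p = 3.08e-14), and Gcnt1, a glycosyltransferase (0.53 and lower, adjusted p = 2.12e-08), showed it as well. In each the second probe was well above background on all B6 arrays and on at most 4 of 12 NZO arrays. In the authors' series table the entry of this Med8 probe was at -0.08 and not called (adjusted p = 0.469 by limma). That table holds means per transcript, so the entry may not read this probe alone. Tox4, the gene with the highest difference, had a second probe at -0.30 (SE 0.08, adjusted p = 0.00914), a call not kept in every alternative.

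The called differences were spread over the genome with local clusters. Of 18757 genes with a position, each read by its brightest probe, 814 (4.34%) were called at least 2-fold. The share was highest on chromosome 14, at 6.27%, with 27 higher and 19 lower, followed by chromosome 17 at 5.70% and chromosome 4 at 5.41%. It was lowest on chromosome 15, at 2.76%, and 0 of 10 genes of chromosome Y were called at least 2-fold. The share called at any size varied less among chromosomes, between 24.3% on chromosome 16 and 30.1% on chromosome 17 outside the Y chromosome.

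**Figure D4:**
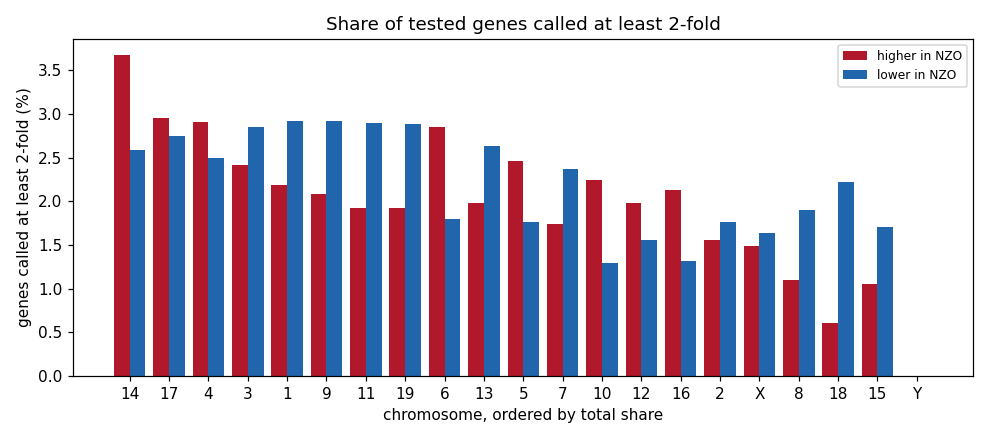
Percentage of tested genes with a position that were called at least 2-fold higher (red) or lower (blue) in NZO, by chromosome, ordered by the total share. Chromosome 14 stands highest with 6.27% of 734 genes and chromosome 15 lowest among the autosomes with 2.76% of 761.

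In windows of 2 Mb with at least 10 tested genes, 28 of 688 had at least 20% of their genes called at least 2-fold, and 327 had none. The highest was chr14:4000001-6000000, where 8 of 11 genes were higher in NZO. These carry clone and model names such as Gm5796 (1.23), Gm3264 (1.03) and AJ409496 (1.27). They did not share the average of the tissues: Gm5796 differed by 1.97 in BAT and 1.93 in muscle, and by -0.10 in gWAT. The longest run of neighbouring genes called in one direction, 11 genes, lay there too, and 2 of its 55 pairs of probes shared a stretch of at least 20 bases, the longest being 41, so these signals need not be independent.

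The second window by share held Cenpe, a kinetochore motor, higher by 1.34, and Bdh2, a short-chain dehydrogenase, lower by 1.24, on chromosome 3. On chromosome 9 the window chr9:36000001-38000000 held Slc37a2 (2.29), a sugar-phosphate carrier of macrophages, Pknox2 (1.11), a homeobox protein, Siae (-1.07), a sialic acid esterase, and Spa17, a sperm protein that was lower in NZO and well above background on 6 of 12 NZO arrays. Slc37a2 and Pknox2 owed their averages mainly to gWAT, at 3.99 and 3.05, and Pknox2 was not called without gWAT (0.07, adjusted p = 0.87). The window on chromosome 11 held the myosin heavy chains Myh1, Myh2, Myh4 and Myh8, all lower in NZO. Myh8, well above background on all 23 arrays, differed by -8.73 in BAT and by -0.19 in muscle. The others were dim on some NZO BAT arrays, so no size is given for them there.

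The list of muscle fibre markers, which itself holds Myh1, Myh2 and Myh4, had 7 of 8 tested lower in NZO and none higher. Over all genes 14.5% were lower. The mean level of the list on BAT arrays lay between -4.31 and -1.60 in NZO and between 2.97 and 5.02 in B6, and in muscle between 9.003 and 9.32 in NZO and between 9.41 and 9.47 in B6. Without BAT, the difference of Myh4 was -1.55 with an adjusted p of 0.122, and Myh1, Myh2, Myh8 and Tnnt3 were not called either (adjusted p 0.0864 to 0.157). With slide as a fixed block it was -3.13 (adjusted p = 0.0547). The part of muscle tissue on the BAT arrays in these averages was not tested.

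The window chr6:128000001-130000000 had 7 of 26 genes called at least 2-fold, all higher in NZO, in a region of C-type lectin receptors of natural killer and myeloid cells. This direction is that of the brightest probe of each gene. The largest difference, 3.99, came from an unnamed transcribed region, another probe of which gave -4.73, both well above background on all 23 arrays. Other members without a symbol were well above background on 16 of 23 arrays. Klra22 was higher by 1.29, Clec2d by 1.14, Clec2i by 1.09 and Clec7a by 1.07. Clec7a, the receptor of fungal glucans, was 2.11 higher in gWAT, 0.64 in BAT and 0.36 in muscle. It was not called without gWAT (adjusted p = 0.0677) or with B6 muscle array 011 (adjusted p = 0.0647). In the window chr19:34000001-36000000 the 4 genes called 2-fold were all higher. Lipa, the lysosomal acid lipase, was higher by 1.31 (SE 0.20), Stambpl1, a deubiquitinase, by 1.05 and Lipf, a lipase, by 1.29, these mainly in gWAT. Without gWAT, Stambpl1 (0.44, adjusted p = 0.215) and Lipf (0.09, adjusted p = 0.865) were not called. Ifit1bl2, of the interferon-induced Ifit family, was 3.55 higher in muscle with 0.00 in gWAT and 0.15 in BAT, and was not called without muscle (0.08, adjusted p = 0.454).

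In chr4:146000001-148000000, 8 of 32 genes were called at least 2-fold, 2 higher and 6 lower, and zinc finger genes led the list. Zfp979, Zfp982 and Zfp985 were lower in NZO, with adjusted p of 5.03e-13, 1.60e-12 and 1.54e-07, and were well above background on 3, 1 and 4 of the 12 NZO arrays. Zfp979 was at least 75.7-fold lower in NZO gWAT with its brighter probe, and its second probe fell by 1.95. Fbxo44 fell by 2.60 in the same window. The higher genes were Agtrap (1.15) and the zinc finger gene Zfp984 (1.67), another probe of which was called lower, at -1.285. Over the 61 tested zinc finger genes numbered Zfp800 to Zfp999, 9 (14.8%) were called at least 2-fold, 4 higher and 5 lower, against 4.37% of all gene names, and over all 316 genes named Zfp and a number 6.33% were.

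The window chr16:96000001-98000000 held the neighbours Mx1 and Mx2, which moved apart. Mx1 had levels of 1.34, 2.54, 1.1 and 1.8 in NZO gWAT, against -1.32, -1.32, -1.52 and -0.75 in B6 gWAT. It was higher on all NZO arrays of each tissue, with a difference of 2.73 (SE 0.25, adjusted p = 2.11e-08), while Mx2 was on only in B6. The window chr12:116000001-118000000 held Ncapg2, a condensin subunit (1.52), and Wdr60, a dynein chain of cilia (-1.17), and the one on chromosome 16 also Sh3bgr (-2.05), which is abundant in muscle and differed by -3.70 in BAT and -0.36 in muscle.

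The window chr1:174000001-176000000 had 8 of 34 genes called at least 2-fold, 3 higher and 5 lower. Within 2 Mb of the Ifi202b probe, 30 of 46 tested genes were called, 16 higher and 14 lower, and 9 were called at least 2-fold. Over all genes 27.6% were called and 4.37% at least 2-fold. Mndal, a p200 neighbour of Ifi202b, was lower in NZO and well above background on 6 of 12 NZO arrays (adjusted p = 1.88e-12). Atp1a4, a sodium pump subunit, was higher by 5.89 in gWAT and 1.64 in muscle (average adjusted p = 6.63e-08) and, not being well above background in B6 BAT, at least 6.63-fold higher in BAT. Genes that were not called lay between Atp1a4 and Ifi202b, such as Igsf9 (0.37) and Slamf8 (-0.56). Ifi203, another p200 gene, had 2-fold calls in both directions, among them 1.90 and -1.82 for probes on one transcript. Of 19 tested genes of the list of p200 genes and their neighbours, 6 were higher and 5 lower, with a median of 0.03. Over all genes 13.1% were higher and 14.5% lower.

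**Figure D5:**
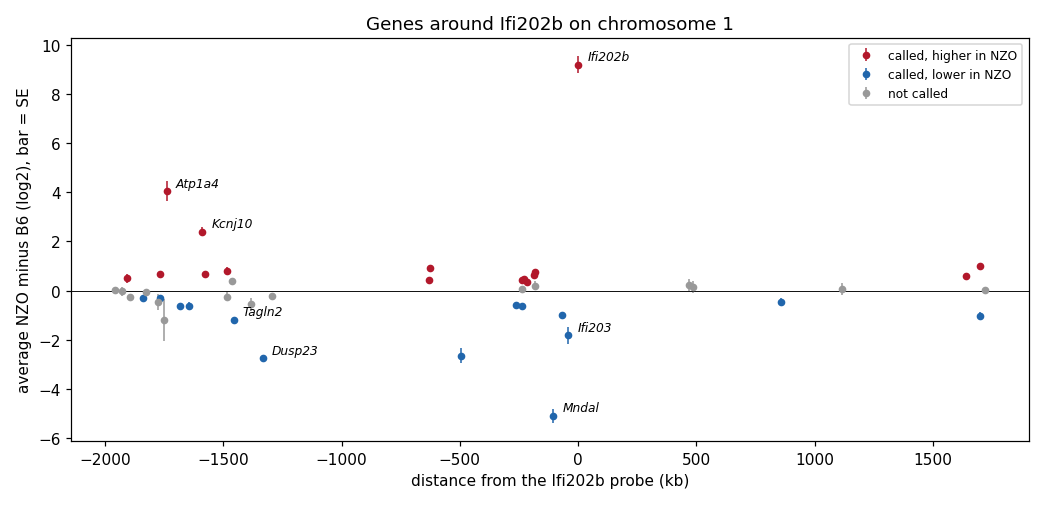
Average NZO minus B6 difference (log2, with SE bars) of 46 genes against the distance of their probe from the Ifi202b probe in kb, red for genes called higher in NZO, blue for genes called lower and grey for genes not called. Genes higher and lower in NZO alternate along the region, and the values of Ifi202b, Kcnj10, Mndal and Atp1a4, which were dim in one strain in at least 1 tissue, do not measure size.

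There were 49 runs of at least 4 neighbouring genes called in one direction, 24 higher and 25 lower, holding 217 genes. After the run on chromosome 14, the longest was one of 7 genes on chromosome 17, all higher, in the class Ib histocompatibility region, with H2-T24 at 1.12 (SE 0.13), H2-T9 at 0.54, H2-T10 at 0.50 and H2-T23 at 0.44. Members of this family are closely related in sequence, so their probes may read each other's transcripts. Of the 21 pairs of probes in this run, 1 shared a stretch of 20 bases. The run also held unnamed probes at chr17:36232145-36232204 and chr17:36232209-36232268, which lie side by side and need not be independent. A run of 6 lower genes on chromosome 7 went from Zfp607a to Psmc4 and held Zfp780b (-3.36) and Zfp974 (-0.997). Psmc4 was at 0.235 in gWAT, -0.973 in BAT and -0.503 in muscle. A run of 6 higher genes on chromosome 12 covered the imprinted locus of Dlk1, a membrane protein that restrains adipocyte formation, at 1.53 (SE 0.22), with Meg3, its maternally expressed non-coding RNA, at 0.63 and Begain at 0.83. Dlk1 was 2.34 higher in BAT, 1.51 in muscle and 0.73 in gWAT. A run on chromosome 18 held 6 protocadherin beta genes, Pcdhb16 to Pcdhb22 without Pcdhb19, lower by 0.42 to 0.96 on average. In muscle they were mixed in sign, at 0.33, -0.04, 0.33, -1.13, 0.15 and -0.22 in this order. A run on chromosome 2 held 6 lower genes, mostly without symbols, whose differences in BAT lay between -0.123 and 0.115. Of its 15 pairs of probes, 1 shared 37 bases, so these signals need not be independent.

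Long stretches held no gene called at least 2-fold. The longest by number of genes was chr8:10924663-42075918, with 210 tested genes, of which 43 were called at a smaller size. Others were chr16:11193151-30561530 with 181 genes, chr9:13281124-35024971 with 150, chr7:53080778-87470237 with 147 and chr6:30698828-48928744 with 145. The median absolute difference of their genes lay between 0.14 and 0.19.

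Genes of cell division were higher in NZO. Of 20 tested genes of the cell cycle list, 16 were higher and none lower, with a median difference of 1.11 against -0.01 over all genes, and 27.6% of all genes were called. Ccnb1, the cyclin of mitotic entry, stood at 1.63 (SE 0.16, adjusted p = 7.56e-08), Birc5, a part of the chromosomal passenger complex, at 1.60 and Rrm2, a subunit of ribonucleotide reductase, at 1.49. In every tissue NZO arrays lay above B6 arrays for these 3 genes. Mcm7, Mcm2, Tyms and Aurka were not called (0.10, 0.14, 0.05 and 0.38). The median of the list was 0.68 with normexp background correction and 0.74 in the authors' series table.

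Class II and class I histocompatibility genes present peptides to T cells. Of 26 tested, 7 were higher and 4 lower, and the median was 0.04, against 13.1% higher and 14.5% lower over all genes. H2-Ab1, the beta chain of the class II molecule A, had levels of 5.16, 5.58, 4.84 and 5.15 in NZO gWAT, against 6.44, 6.47, 6.78 and 5.74 in B6 gWAT. In muscle it gave 2.15, 2.14, 2.78 and 2.65 in NZO, against 5.08, 4.82 and 4.46 in B6. It fell by 1.83 (SE 0.16, adjusted p = 8.48e-09), and its partner H2-Aa fell by 1.13. Cd74, the invariant chain of class II, was at -0.32 and not called. B2m, the light chain of class I, was higher by 0.79. H2-Ea was not tested, since it did not pass the background rule in every tissue.

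Interferon-induced genes showed no common direction, with 10 of 34 tested higher and 6 lower and a median of 0.08. Over all genes 13.1% were higher and 14.5% lower. Besides Mx1 and Mx2, Eif2ak2, the kinase that responds to double-stranded RNA, was higher by 0.83 (SE 0.06, adjusted p = 1.12e-09) on all NZO arrays of each tissue. The guanylate-binding and immunity-related GTPases held 5 lower and no higher of 15 tested, against 14.5% lower and 27.6% called over all genes. Their median was -0.24, and Tgtp2 (-1.30), Gvin1 (-0.71) and Irgm2 (-0.64) led the lower ones. Tgtp2 and Gvin1 have close relatives whose transcripts a probe may share. Without BAT, Irgm2 was not called.

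Glutathione S-transferases, which join glutathione to electrophiles, held 11 lower and 3 higher of 21 tested, with a median of -0.31. Over all genes 14.5% were lower and 13.1% higher. Among those of the mu class, Gstm3 stood at -2.22, Gstm2 at -1.70, Gstm5 at -1.56 and Gstm1 at -1.28, while Gstm4 was higher by 0.62 and Gstm7 was not called (0.38). The probe of Gstm1 maps to chromosome 5, and another on chromosome 3 gave -2.41. Gstm4 had another probe that was called lower, at -1.39. Their sequences are alike, so a probe may read several of them. Gstm3 had no overlap of the strains in any tissue (SE 0.14, adjusted p = 3.18e-11), and Gstm6 fell by 3.82 in gWAT and by 1.70 in BAT and, not being well above background on any NZO muscle array, was at least 2.93-fold lower in muscle.

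Genes of insulin signalling and glucose uptake held 11 lower and 1 higher of 29 tested, with a median of -0.09, against 14.5% lower and 13.1% higher over all genes. Pdk1 is here the pyruvate dehydrogenase kinase, which slows the entry of pyruvate into the citrate cycle. It stood at -2.19, -2.11, -2.04 and -2.23 in NZO gWAT, against 0.21, 0.12, 0.07 and 0.42 in B6 gWAT, and in BAT at -1.27, -1.28, -1.29 and -1.24 in NZO, against 1.89, 1.7, 1.61 and 1.74 in B6. It fell by 2.36 (SE 0.14, adjusted p = 5.09e-12). Hk2, a hexokinase, fell by 1.09 and Gys1, glycogen synthase, by 0.80, and Irs2, Irs1, Slc2a4 and Insr fell by 0.70, 0.62, 0.47 and 0.46. The adaptor Grb10, which restrains the insulin receptor, was the one member that rose (0.46).

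Circadian clock genes held 6 lower and none higher of 15 tested, against 14.5% lower and 13.1% higher over all genes. Their median was -0.40. Among the lower ones were Nr1d1 (-0.83), a repressor of the clock, and Tef (-0.58), a clock-controlled transcription factor, both mainly in gWAT, at -1.68 and -0.99. Without gWAT, neither was called. Sampling times were not used here. The median was -0.21 without B6 replicate number 015. Respiratory chain genes hardly differed, with 1 higher and 2 lower of 30 tested, against 27.6% called over all genes, and a median of -0.02. Cox5b (-0.39) and Sdha (-0.33) were lower and Ndufb5 (0.18) higher, and none of the 3 was called with arrays centred on their median. Genes of the unfolded protein response held 3 higher, led by Trib3 (0.53), and 1 lower, Herpud1 (-0.30), of 16, with a median of 0.15, a share called near the 27.6% of all genes. Neither Trib3 nor Herpud1 kept its call in every alternative, Trib3 losing it without gWAT or muscle and Herpud1 with arrays centred on their median.

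Of the 9 tested genes of the list of inbred polymorphisms, 5 were higher and 1 lower, against 13.1% higher and 14.5% lower over all genes. The list collects genes that vary between inbred strains. Whether NZO and these B6 mice differed in their copy number or by a deletion was not tested. Nnt, the mitochondrial transhydrogenase that is partly deleted in the substrain C57BL/6J, was read by a single tested probe. Its levels were 4.16, 3.94, 3.68 and 4.03 in NZO muscle, against 2.5, 1.92 and 2.21 in B6 muscle, and 2.19, 1.9, 1.91 and 2.11 in NZO gWAT, against 1.58, 1.51, 1.73 and 1.54 in B6 gWAT. The average difference was 0.95 (SE 0.15, adjusted p = 3.19e-05), with 1.74 in muscle, 0.77 in BAT and 0.44 in gWAT. Hdhd3, a phosphatase-like protein, was higher by 1.62 on all NZO arrays of each tissue, Alad, an enzyme of haem synthesis, by 0.55 and Glo1, glyoxalase, by 0.45, and Nlrp1a, an inflammasome sensor, was lower by 0.87.

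Markers of other cells and of fat were compared in the same fit. Lep, the hormone leptin, had levels of 5.5, 5.19, 5.1 and 5.49 in NZO gWAT, against 4.12, 3.73, 4 and 4.57 in B6 gWAT. It was higher by 1.77 (SE 0.25, adjusted p = 9.94e-06). With B6 muscle array 011, on which Lep was 3.64, the difference was 1.20 with an adjusted p of 0.157. Cidec, a lipid droplet protein, was higher by 0.89, and also lost its call with that array (0.43, adjusted p = 0.551). Retn, the hormone resistin, was lower by 0.68 but not called without BAT (-0.21, adjusted p = 0.499), and Adipoq, Plin1, Fabp4, Lipe and Pnpla2 were not called, between -0.12 and 0.27.

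B cell markers held 2 higher of 4 tested, against 13.1% higher over all genes. Cd22, a sialic acid receptor of B cells, was higher by 1.77 in NZO (SE 0.09, adjusted p = 8.94e-13), by 1.90 in gWAT, 1.83 in BAT and 1.54 in muscle. Cd79a, which forms part of the B cell receptor, was 1.90 higher in gWAT, 0.10 in BAT and 0.17 in muscle, and was not called without gWAT (adjusted p = 0.58). Mast cell markers held 4 higher of 5, against the same 13.1%, with Cpa3 at 0.91, Cma1 at 0.75 and Tpsb2 at 0.65. None of 7 endothelial, 3 T cell, 4 erythroid or 5 liver markers was called. Among macrophage markers Gpnmb (1.54, adjusted p = 0.049) and Cd68 (0.96) rested on gWAT, with tissue differences of 5.03 and 2.40 there, and neither was called without it or with B6 muscle array 011. Gpnmb turned to -0.34 without gWAT (adjusted p = 0.203), and leaving out any one gWAT array also ended its call. One brown fat marker of 7 was called, Ppargc1a, a coactivator of mitochondrial genes, at -0.57, which was not called without gWAT (-0.21, adjusted p = 0.415). The thermogenic uncoupling protein gene Ucp1 was not called on average (2.04, adjusted p = 0.133), although its levels in white fat were 3.51, 3.59, 3.77 and 3.96 in NZO, against -3.98, -4.8, -4.22 and -3.33 in B6. The strains did not overlap there, and the mean of the brown fat list lay between 0.66 and 1.06 in NZO gWAT and between -2.17 and -1.15 in B6 gWAT. Of 24 housekeeping genes 7 were lower and 1 was higher, against 27.6% called over all genes, with Pgk1 (-0.56), Gapdh (-0.47) and Psmc4 (-0.41) lowest. Gapdh and Psmc4 lost their calls with arrays centred on their median, and the probe of Pgk1 lies on chromosome 3, while another on chromosome X was at 0.13 and not called.

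The strains shared a slide in 4 cases, within which the differences could be read without a slide effect. Slide 6 set NZO gWAT arrays 009 and 003 against B6 gWAT array 015. Each other case set a single NZO array against a single B6 array, so these differences are not replicated. On slide 6 in gWAT 98% of the 1230 probes called at least 2-fold kept the sign of their average, on slide 4 95.9% in gWAT and 95.6% in muscle, and on slide 3 in BAT 98%. These arrays were part of the average, so the shares describe its evenness. For Rem1 the within-slide differences were 3.96, 3.60, 4.07 and 3.10, and for Rbm45 probe A 3.01, 2.74, 2.55 and 2.75.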

How the data were processed

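Total RNA was labelled with Cy3 and hybridised to single-colour Agilent mouse arrays. The processed spot intensity, background-subtracted by Agilent Feature Extraction 11.0.1.1 per the file headers (the submitters' processing notes name version 9.1), was deposited by the authors on a linear scale with no scaling between arrays. The authors' deposited series table holds the mean median intensity per transcript, on a linear scale, not centred: all 37877 values of each array were equal to those of the scanner files within a relative tolerance of 0.0001, and column medians lay between 43 and 70. It served only as an alternative.

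Control and outlier-flagged spots were left out and spots of a probe averaged, so 120 tested probes lack a value on some array. The log2 values used here were computed from the deposited intensities, minus each array's 75th percentile. Names came from RefSeq accessions for 27656 probes and from the files otherwise; positions are on mm9, per the file headers. Models were fitted with lmFit and eBayes of limma 3.58.1 (R version 4.3.3), having tissue as a fixed block and Benjamini-Hochberg adjustment over all tested probes. Every adjusted p comes from these limma fits, the interaction from a fit of 6 group means with limma's F test. In simulated arrays for the average strain effect on 25875 probes, the fit recovered 29 of 50 probes changed by 0.5 on the log2 scale, 45 of 50 changed by 1 and all 50 changed by 2, and called 5 unchanged probes. These counts describe the simulated arrays only. They do not measure recovery in the data, where the interaction test was passed by 28.1% of tested probes. The number of arrays limits the precision.

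Named were the 12 highest and 12 lowest genes on in all arrays without strain overlap, and the 6 highest bounds per direction. Up to 3 leading members of each list were named, as were genes of the top windows and longest runs and the 10 widest probe gaps. Nnt, Ifi202b and H2-Ea were named as genes known to vary between inbred strains. Members of a list beyond these were named after their values were seen, as were the further pairs printed. The members, lists and rule were chosen with earlier results of these data known. No set test was run. Some members of the lists are not reported here.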

Additional observations from a re-analysis of the deposited data

Results flagged for a closer look

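Among 120 groups of 4 arrays from genes whose values are given by array, 4 held an array far from the rest, and chance flags about 1 in 20 groups. Lep was 1.19 on B6 BAT array 009, against -0.73 to -0.48 on the other B6 BAT arrays. Gstm3 was 2.26 on B6 gWAT array 015, against 2.17 to 2.18 on the others, a small gap. Rbm45 probe B was -0.13 on B6 BAT array 015, against 0.04 to 0.06. Thumpd1 probe B was -0.71 on NZO BAT array 009, against -6.54 to -6.02.

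The strain difference itself differed between tissues, by limma's F test of the interaction, for 592 of the probes called at least 2-fold. The adjusted p of this test was 2.29e-07 for Pttg1, 4.69e-07 for Ifi202b, 1.23e-06 for Ucp1, 1.07e-05 for Pdk1, 3.42e-05 for Trim12a, 0.000363 for Ccl19, 0.000872 for Nnt, 0.00116 for Gstm3, 0.00307 for Slc25a17, 0.0181 for H2-Ab1, 0.0284 for Gchfr and 0.0329 for Mx2.

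B6 muscle array 011, which the average does not use, gave levels of 6.79 for Adipoq, 3.64 for Lep and 5.05 for Plin1, against 2.43 to 3.37, -3.68 to -3.14 and 1.04 to 1.79 on the other B6 muscle arrays.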

How the results depend on the processing

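The count of probes called ranged from 5691 to 7468 and that of 2-fold calls from 1200 to 1313 over fits that left out an array or a number; the interaction count ranged from 5825 to 8104, the count without overlap from 1475 to 1647 and the probes on in one strain from 50 to 54. The 2-fold count was 457 with normexp, 448 with the series table, 2209 without the filter on dim probes and 695 with probes well above background on all arrays. Probes called without overlap numbered 932 with the series table, 931 with B6 muscle array 011, 2595 without gWAT, 2490 without BAT and 2630 without muscle. The interaction called 1433 without gWAT and 4711 without BAT. Probes on in one strain numbered 33 with array 011 (3 in NZO, 30 in B6), and 81 when 1 array of the dim strain could be above background. Windows with at least 20% were 80 at 1 Mb, 4 at 5 Mb and 494 for calls of any size, and 12 genes had opposite 2-fold calls, against 118 at any size.

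List medians moved for the cell cycle (0.683 with normexp, 0.736 with the series table), for the unfolded protein response and housekeeping genes without gWAT (-0.113 and -0.107) and for the clock without B6 number 015 (-0.207). Over fits leaving out an array or number, medians ranged from -0.044 to 0.128 for p200 genes, -0.013 to 0.096 for histocompatibility, 0.412 to 0.482 for polymorphisms, 0.04 to 0.128 for interferon, -0.3 to -0.167 for GTPases, -0.364 to -0.28 for glutathione S-transferases, -0.478 to -0.207 for the clock, -0.065 to 0.018 for respiration, 0.117 to 0.189 for the unfolded protein response, 1.003 to 1.183 for the cell cycle, -0.127 to -0.027 for insulin and 0 to 0.064 for housekeeping. Gpnmb reversed without gWAT (-0.336, adjusted p 0.203 by limma). The cause was not tested for any of these. Of 116 named probes, 85 lost no call in any alternative.

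Deviations of same-numbered samples of one strain and different tissues correlated at -0.271 to 0.462, with 8 of 20 pairs over 0.1 and a median of 0.0745. Across both strain and tissue 1 of 9 same-numbered pairs was over 0.1 (median -0.097), and across strains within a tissue 0 of 4 (median -0.09). The numbers were not treated as pairs in the main fit, which counts each array as separate. Whether equal numbers mark one mouse was not tested. With strain and number as a random replicate block (correlation -0.074) 8265 probes were called, and with means over tissues per number 5346. Slide as a fixed block left 5733 calls and as a random block 7356. The average taken from a fit of 6 group means, whose error leaves out the variation between tissues, gave 8959 calls. With array 011, 5690 were called. Centring on medians gave 5365 calls, a median difference of 0.071 against -0.026. Dim probes limit the size of the largest differences.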
